A study of Mus musculus with 5 samples.

Results

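The cells described here were taken as lymphoid-primed multipotent progenitors of mouse bone marrow, picked from Lin-kit+ cells by their own transcripts. A minority of them, described below, do not bear out that name. A Lin-kit+ cell was taken as a member when it held at least 1 UMI (unique molecular identifier, the tag that lets each captured transcript be counted once) of 3 or more of the genes Flt3, Dntt, Satb1, Cd52, Il12a and Notch1, and no UMI of the monocyte genes Csf1r, Ccr2, F13a1 and Ms4a6c, the plasmacytoid dendritic gene Siglech, the class II gene H2-Aa, or the B and T cell receptor genes Cd79a and Cd3e. Of 11581 Lin-kit+ cells, 299 were members (2.58%), in a series of 12893 cells. Lymphoid-primed multipotent progenitors lie just downstream of stem cells and early multipotent progenitors. They have begun to transcribe lymphoid genes, have largely lost the capacity to make megakaryocytes and erythrocytes, and can still give rise to granulocytes and monocytes as well as to B, T and natural killer cells. High Flt3 on the surface of kit+ Sca-1+ progenitors is the usual way to sort them, and onset of Dntt marks the step towards the common lymphoid progenitor.

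All cells came from untreated Fgd5CreERT2/+Rosa26Tomato/+ mice, 20 weeks old, which carry an inducible Cre with a ZsGreen reporter in 1 Fgd5 allele and a Tomato reporter in 1 Rosa26 allele. Marrow was sorted as lineage-negative CD45.2+ c-kit+ cells (Lin-kit+, 3 libraries, called a, b and c), as Lin-kit+ cells with the Fgd5 reporter (Fgd5+, 1 library) and as reporter-positive cells that also had the HSC surface phenotype (HSC-Fgd5+, 1 library). The reporter follows the Fgd5 locus, so the last 2 populations are stem cells as far as that locus marks them. Libraries a, b and c held 1339, 4095 and 6147 cells with medians of 6567, 4426 and 5509 UMIs per cell, and the Fgd5+ and HSC-Fgd5+ libraries held 793 and 519 cells with medians of 4346 and 3721. The population of each library was taken from its number of cells, because the barcodes carry no population name, and every comparison rests on that match. Whether each library is its own mouse or a portion of a shared cell suspension is not given in the sources used here, so errors and p-values describe the spread between libraries, which may be technical. In the comparison with all other Lin-kit+ cells, that spread was estimated as common to all genes. The error of a single gene there does not measure how much that gene varied between libraries. Of the barcodes, 62 occurred in more than 1 library, and 4 members had such a barcode.

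Members made up 2.54% of library a (34 cells, 95% Wilson interval 1.82 to 3.53%), 2.76% of library b (113 cells, 2.3 to 3.31%) and 2.47% of library c (152 cells, 2.11 to 2.89%). The mean was 2.59% ± 0.150 (SD, n = 3 libraries), and the 3 intervals, which cover counting error only, overlapped. In the reporter-positive libraries, 1 of 793 Fgd5+ cells met the same requirements, and this cell was called a doublet. Of the HSC-Fgd5+ cells, 0 of 519 met them, which allows a share of up to 0.578%. Members were shallower than the other cells of their libraries, with medians of 5675.5, 3571 and 4386.5 UMIs against 6609, 4456.5 and 5534 in a, b and c. Detecting 3 genes depends on depth. With each cell thinned to 2000 UMIs before the selection, 1.62% of cells qualified. Scrublet called 3 members doublets (1.0%), against 1.06% of other Lin-kit+ cells.

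The genes of the selection describe the members and were not tested. In GRCm38 they lie on chromosome 5 from 147330741 to 147400489 (Flt3, the receptor tyrosine kinase for Flt3 ligand), 19 from 41029275 to 41059525 (Dntt, terminal deoxynucleotidyl transferase, which adds bases at the joints of rearranging antigen receptor genes), 17 from 51736187 to 51833290 (Satb1, a chromatin organiser of lymphoid cells), 4 from 134082448 to 134095082 (Cd52, a small surface glycoprotein of lymphocytes), 3 from 68690644 to 68698547 (Il12a, a subunit of interleukin 12) and 2 from 26457903 to 26516663 (Notch1, the receptor that directs progenitors to the T cell fate). Levels are given as CPM, the UMIs of a gene per 1000000 UMIs summed over the cells of a population in a library. Dntt reached 1430.3, 1831 and 1626 CPM in the members of libraries a, b and c and 29.0, 37.2 and 35.5 CPM in the other cells. A Dntt UMI was found in 84.9% of members, the highest share of the 6 genes over all members, and in 3.71% of other cells. In library a, Cd52 (85.3%) and Il12a (82.4%) were found in more members than Dntt (76.5%). Among the other cells, those with over 5% of their UMIs from 6 granule genes of developing neutrophils (Camp, Ngp, Ltf, Lcn2, S100a8 and S100a9) served to gauge free RNA, and 11 of these 2518 cells (0.437%, median 5107 UMIs against 4202 in members) held a Dntt UMI.

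Flt3 stood at 236, 227.5 and 138.5 CPM in members against 13.5, 12.7 and 10.9 CPM in other cells, and Il12a at 231, 272 and 236 CPM against 17.2, 18.3 and 17.2 CPM. Satb1 stood at 132, 156 and 123 CPM against 13.6, 13.3 and 11.7 CPM. Notch1 was the sparsest of the 6, at 42.5, 93.7 and 66.6 CPM against 11.6, 11.0 and 12.7 CPM, with a UMI in 27.8% of members. Flt3, Satb1, Il12a and Notch1 were thus higher in members in every library, as the selection requires. Cd52 was not: members held 491, 448 and 439.6 CPM and other cells 559.9, 554 and 545 CPM, and Cd52 was found in 70.2% of other cells and in 94.5% of the granule-rich ones. Without Cd52 among the wanted genes 179 cells remained, 1.62% of a library on average.

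**Figure D1:**
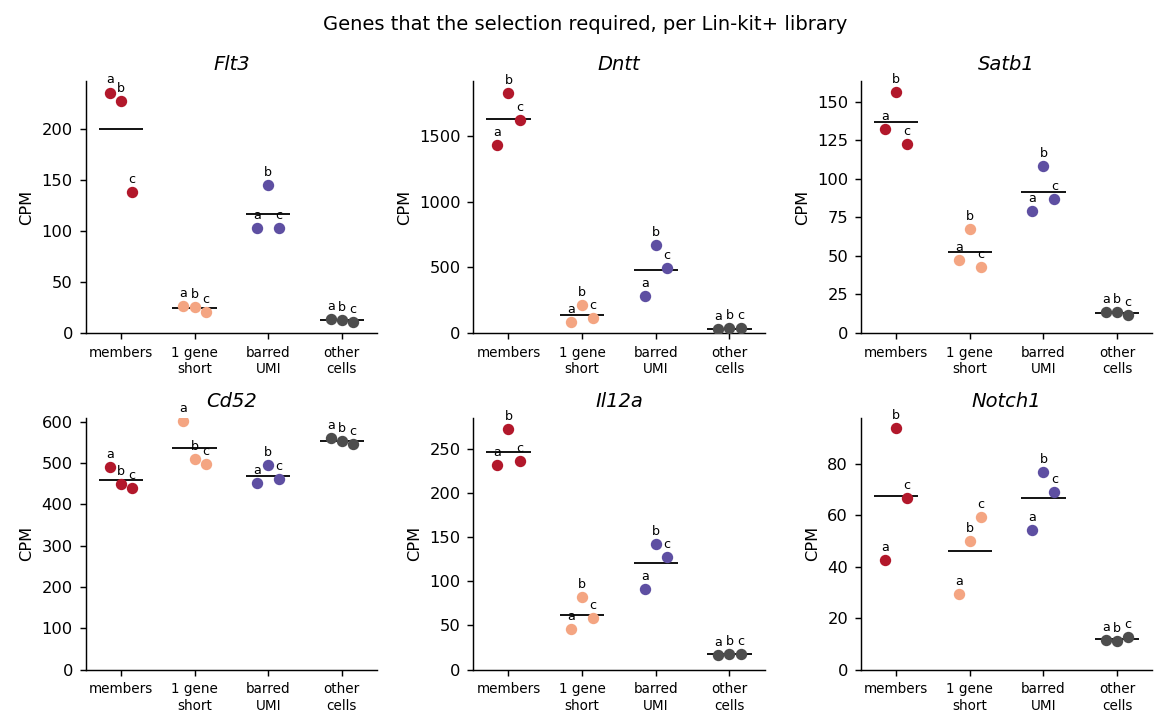
Level of each wanted gene (CPM, axes from 0) in libraries a, b and c for members, for cells 1 wanted gene short, for cells with enough wanted genes but a barred UMI, and for all other Lin-kit+ cells; bars are means of the 3 libraries. Members lie above the other cells for 5 of the 6 genes and below them for Cd52.

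Most members sat at the edge of the selection. Exactly 3 wanted genes were found in 159 members, 4 in 89, 5 in 43 and all 6 in 8. The commonest sets were Dntt with Cd52 and Il12a (38 members), the same with Flt3 (26 members) and the latter with Satb1 added (23 members). Just outside the threshold, 539 cells had exactly 2 wanted genes and no barred UMI. These cells held 86.4, 212 and 116 CPM of Dntt and 26.1, 25.6 and 20.6 CPM of Flt3, nearer to the other cells than to the members. The cells removed for a barred gene were closer. Of 751 Lin-kit+ cells with 3 or more wanted genes, 452 (60.2%) held a barred UMI, 352 of them one of Ms4a6c, which 41.8% of all other cells also held, and 147 of them a single barred UMI in all. Their levels were 282, 668 and 496 CPM of Dntt and 103, 145.5 and 103 CPM of Flt3. Of the 314 Lin-kit+ cells with 5 or more Dntt UMIs, 157 were members, 124 held a barred UMI (in 71 of them only 1) and 33 had too few wanted genes. Members held 51.4% of all Dntt UMIs of the Lin-kit+ libraries, so the selection took in about as much of the Dntt message as it left out. Cd3e was not analysed here, which leaves 7 barred genes in use.

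The first comparison asked which genes outside the selection differed between members and all other Lin-kit+ cells of the same library. UMIs were summed per library and population and tested with edgeR, with the library as a block. The genes tested were not used to choose the cells, but they were counted in the same cells, so a gene that tends to occur with the wanted genes or without the barred ones differs through the choice itself, and the test asks only whether the difference held across libraries. Of 10568 genes, 919 (8.7%) were higher in members and 1202 (11.4%) lower at an adjusted p below 0.05, 20.1% in all. Scaling by library totals in place of TMM factors moved the median of all genes by 0.17 on the log2 scale and the split to 1455 higher and 795 lower. Without library b the counts were 536 and 776, and without library c 443 and 734.

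The genes with the largest rise that had at least 100 UMIs in members were led by Gm5111, known by its symbol only, at 118, 82.5 and 74.6 CPM against 3.06, 5.37 and 4.39 CPM (log2 fold change 4.09 ± 0.24 SE). Myl10, a myosin light chain gene, rose from 40.3, 41.7 and 36.6 to 661, 698 and 630.03 CPM (3.89 ± 0.10, adjusted p = 5.94e-298). It was found in 186 of the 299 members. Cox6a2, a subunit of cytochrome c oxidase best known from muscle, stood at 123, 98.1 and 73.3 CPM against 6.23, 6.2 and 6.65 CPM (3.65 ± 0.23). Wfdc17, a small secreted protein gene, stood at 373, 370.2 and 382 CPM against 25.7, 25.7 and 29.7 CPM (3.60 ± 0.11). In all 4 genes every library of members lay far above every library of other cells. In the granule-rich cells, Gm5111 and Cox6a2 were each found in 1 of 2518 cells. The other 11 were Ly6d, a surface protein of progenitors turning to the B lineage (3.31 ± 0.20), the nucleotide sugar receptor P2ry14 (3.16 ± 0.22), Gimap6, of a GTPase family of lymphocytes (3.15 ± 0.16), AA467197 (3.06 ± 0.21), the chemokines Ccl4 (2.94 ± 0.23) and Ccl3 (2.47 ± 0.18), Egfl7 (2.76 ± 0.13), Tsc22d1 (2.57 ± 0.12), the orphan receptor Gpr171 (2.56 ± 0.13), the tetraspanin Tspan13 (2.40 ± 0.11) and Ctr9, a subunit of the Paf1 transcription complex (2.19 ± 0.15). All 15 genes kept an adjusted p below 0.05 without each library in turn and with DESeq2.

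**Figure D2:**
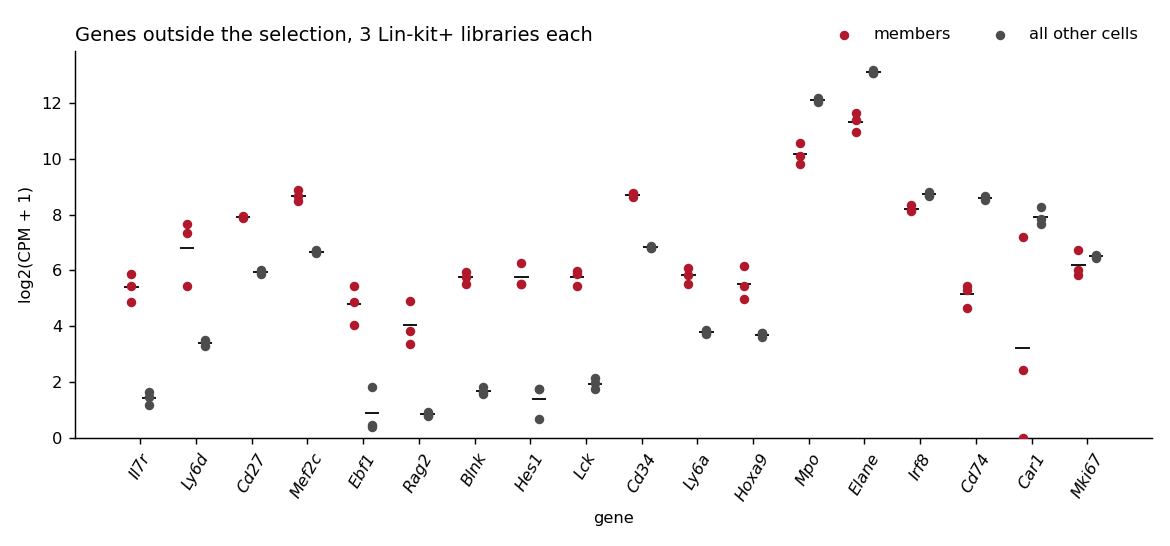
Levels of 18 genes outside the selection as log2(CPM + 1), 1 point per library, in members (red) and all other Lin-kit+ cells (grey), with bars at the means of 3 libraries. From Il7r to Hoxa9 the red points lie above the grey ones; for Mpo, Elane, Irf8 and Cd74 they lie below.

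Of 24 listed lymphoid surface receptors, 23 were tested, 11 were higher and 0 lower, with a median log2 fold change of 0.72 against 0.00 over all genes. Il7r, the interleukin 7 receptor chain on which early lymphoid cells depend, stood at 28.3, 58.0 and 42.6 CPM against 2.15, 1.75 and 1.27 CPM (4.66 ± 0.33, adjusted p = 7.61e-42). Its UMIs were spread over 44 members, 14.7% of them, and 0 of the granule-rich cells held one. Cd27, a receptor of the tumour necrosis factor family on multipotent and lymphoid progenitors, stood at 245.5, 239 and 234 CPM against 57.2, 64.2 and 60.2 CPM (1.79 ± 0.12) and was found in 191 members. The common cytokine receptor chain Il2rg (1.61 ± 0.24), the adaptor Lax1 (4.35 ± 0.51) and the activation marker Cd69 (1.1 ± 0.19) rose too. So did the homing receptors Ccr9 (4.16 ± 0.81), which guides progenitors to the thymus, and Ccr7 (3.39 ± 0.67), from only 12 UMIs in 7 members and 14 UMIs in 11 members. Ly6d stood apart from these genes in its spread. It read 203, 161 and 42.6 CPM in the members of libraries a, b and c against 10.3, 8.88 and 9.94 CPM in other cells, and its 147 UMIs came from 28 members, of which 5 held 57.8%.

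Among lymphoid transcription factors, 12 of the 20 tested were higher and 1 lower, with a median of 1.08. Mef2c, a factor that favours lymphoid over myeloid fate, was the most widely found, in 218 members, at 354, 408 and 469 CPM against 98.1, 99.2 and 105 CPM (1.87 ± 0.10). Tcf4, the E protein E2-2, stood at 160.5, 100.4 and 129 CPM against 25.03, 28.7 and 29.8 CPM (1.96 ± 0.15), and Sox4 at 156, 145 and 129 CPM against 37.2, 33.2 and 34.6 CPM (1.84 ± 0.14). Bcl11a (1.11 ± 0.15) and Ikzf1, which encodes Ikaros (1.01 ± 0.15), rose less and were found in 123 and 110 members. Ebf1, the factor that starts the B lineage program, had the largest change of the list, at 42.5, 15.6 and 27.97 CPM against 2.55, 0.384 and 0.311 CPM (5.08 ± 0.48), from 18 members. Mef2c was thus found in most members, Sox4, Bcl11a, Tcf4 and Ikzf1 in 36.8 to 46.2% of them and Ebf1 in few. Tcf7 and Gata3, factors of the T lineage, passed the test (2.51 ± 0.60 and 2.41 ± 0.53) on 14 UMIs in 7 members and 17 UMIs in 15 members, and 5 members held both. Without library b neither passed, at 1.74 (adjusted p = 0.23) and 1.97 (adjusted p = 0.086). Id2, the inhibitor of E proteins, was the gene of this list that fell, at 47.2, 20.1 and 22.6 CPM against 76.8, 80.2 and 75.1 CPM (-1.75 ± 0.21).

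Of 16 listed genes of antigen receptor assembly, 9 were in the table, the other 7 were not analysed here, and 5 had enough UMIs to be tested, of which 2 were higher and 1 lower. Rag2, a subunit of the recombinase, stood at 9.44, 29.0 and 13.3 CPM against 0.715, 0.932 and 0.793 CPM (4.22 ± 0.54, 22 members), and Rag1 was found in 6 members. Blnk, the adaptor of the pre-B cell receptor, stood at 61.4, 53.5 and 45.3 CPM against 2.55, 2.03 and 2.18 CPM (4.35 ± 0.30, 46 members). Jchain, which joins immunoglobulin chains in plasma cells and is also transcribed in other marrow cells, had 3 UMIs in 1410978 in members. Other cells had 11656 UMIs (ratio of other cells to members 86.5, exact interval 29.6 to 420). The share of cells with a Jchain UMI was close, at 1.0% of members and 1.21% of other cells, so the ratio reflects few cells with many UMIs. Exact intervals of ratios, here and below, cover counting of pooled UMIs only, not the spread between cells or libraries. Of the 10 tested end joining genes that work with Dntt, Xrcc6, which encodes Ku70, was higher (1.73 ± 0.14) and Hmgb2 lower. The list median was 0.13, and these counts were near the shares called over all genes (8.7% higher and 11.4% lower).

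Of 16 tested genes of the Notch pathway, Hes1, Lfng, Mfng and Dtx3 were higher and 0 lower, but the median was 0.00. Hes1, a target of Notch, stood at 75.5, 44.6 and 45.3 CPM against 0.613, 2.41 and 2.38 CPM (4.41 ± 0.31) and was found in 25 members. Mfng, a glycosyltransferase that modifies Notch receptors, stood at 80.2, 64.7 and 77.3 CPM against 27.0, 23.6 and 25.2 CPM (1.39 ± 0.19). Dtx3 (0.89 ± 0.27) did not pass with DESeq2 (adjusted p = 0.058), without library a or c (0.070 and 0.10) or with barred cells left out of the other cells (0.23), and Lfng (2.32 ± 0.64) did not pass with 2 wanted genes (0.092) or among cells of like depth (0.054). Of 6 tested B cell genes, 3 were higher and 0 lower. They were Ebf1, the surface protein gene Cd72 (3.03 ± 0.26, 63 members) and the kinase gene Blk (5.40 ± 1.08), the last from 9 UMIs in 8 members. Of 10 tested T and NK cell genes, 1 (Ccl5) was lower and 5 were higher, led in abundance by the kinase gene Lck at 42.5, 62.4 and 57.3 CPM against 2.35, 3.40 and 2.89 CPM (4.08 ± 0.28, 62 members). The other 4 each lost the call under an alternative: Cd5 with DESeq2 (adjusted p = 0.067), Cd28 without library b (0.069), Cd247 without library a (0.12), and Lat without library b (0.24) or with barred cells left out of the other cells (0.43). Of the genes that define mature T cells, Cd3d was found in 0 of 299 members and in 0.222% of other cells. A count of 0 allows up to 1.0% of members with a UMI and sets no limit on the cells that express the gene below detection. The summed level of the 12 B cell genes in the table was 0.0194, 0.0123 and 0.0149% of UMIs in members of a, b and c and 0.00574, 0.00505 and 0.00521% in other cells.

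These sparse lymphoid genes were counted per cell for 15 of them (Il7r, Rag1, Rag2, Ebf1, Ly6d, Blnk, Cd72, Lck, Hes1, Tcf7, Ccr9, Gata3, Vpreb1, Igll1 and Bcl11b). None was found in 127 members, 1 in 85, 2 in 46, and 4 or more in 27. Cells with Ly6d often held others: of 28 members with Ly6d, 14 also held Il7r, 13 Blnk, 9 Ebf1, 9 Hes1 and 4 Rag1, while Il7r was found in 44, Blnk in 46, Ebf1 in 18, Hes1 in 25 and Rag1 in 6 of all 299. Deeper cells show more genes of any kind, so these overlaps are a description of cells that share libraries.

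Stem cell genes were also higher in members than in the other Lin-kit+ cells, with 15 of the 26 tested higher, 1 lower and a median of 1.14. Cd34, a surface protein of multipotent progenitors that long-term stem cells of adult mice largely lack, was found in 225 members at 425, 397 and 432 CPM against 117, 111 and 111 CPM (1.72 ± 0.10). Ly6a, the gene of the Sca-1 surface antigen, read 56.6, 66.9 and 45.3 CPM against 12.5, 13.8 and 12.2 CPM (1.91 ± 0.24). Meis1 (1.67 ± 0.20) and Hoxa9 (1.63 ± 0.26), homeobox factors of multipotent cells, rose by a like amount. Hlf, a stem cell factor, stood at 33.0, 33.5 and 24.0 CPM against 8.58, 7.79 and 8.38 CPM (1.63 ± 0.32) but did not pass when 4 wanted genes were required (0.77, adjusted p = 0.38). Procr, Slamf1 and Esam, surface markers of long-term stem cells, did not pass the test. Of 26 tested cytokine receptor and signalling genes, 3 were higher and 3 lower, with a median of -0.01. These counts were near the shares called over all genes (8.7% higher and 11.4% lower), so the list as a whole did not stand out. The higher genes included Socs2 (4.61 ± 0.62, 17 members) and the interleukin 1 receptor gene Il1r1 (3.70 ± 0.48, 25 members).

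In the lists of myeloid, erythroid and megakaryocytic genes, nearly all genes that passed the test were lower, though many erythroid and megakaryocyte genes did not pass. Of 21 tested neutrophil and primary granule genes, 18 were lower and 0 higher, with a median of -2.10 (-1.98 with a gene at 0 UMIs set to its bound). Mpo, the myeloperoxidase of primary granules, stood at 906, 1099.5 and 1521 CPM against 4193, 4366 and 4633 CPM (-2.10 ± 0.07), and Elane, neutrophil elastase, at 2643, 1963 and 3140 CPM against 8519, 8603 and 9254 CPM (-1.98 ± 0.06). An Mpo UMI was found in 57.2% of members and an Elane UMI in 33.1%, and in the 129 stem-like cells of the third comparison (median 3376 UMIs per cell against 4202 in members) in 37.2 and 33.3%, so detection of Elane in members was no more frequent than there. A few members carried much of the level: 5 held 35.7% of the Elane UMIs and 5 held 29.6% of the Mpo UMIs. Over the whole list, members of a, b and c drew 2.04, 1.75 and 3.79% of their UMIs from these genes, other cells 8.53, 9.49 and 9.80%, and members without the 16 that passed the granule level of 5% 0.430, 0.550 and 0.858%. Mpo and Elane also passed as lower without those cells. With only 2 wanted genes required, Elane turned to 0.13 (adjusted p = 0.043). Of 19 monocyte and dendritic genes, 13 were lower and 1 higher, with a median of -1.45, and cells with monocyte or class II transcripts had been removed by the selection, so this list is not independent of it. Of 18 erythroid genes, 10 were lower and 0 higher (median -2.13, or -1.40 with genes at 0 set to their bound), and of 11 megakaryocyte genes, 5 were lower and 0 higher (median -0.90, or -0.41). The haemoglobin-stage enzyme gene Car1 (-3.53 ± 0.18) had its 33 UMIs in 4 members. Pf4, platelet factor 4, had 2 UMIs in members and 6472 in other cells (ratio of other cells to members 72.1, exact interval 19.9 to 595), and Gata1, the erythroid and megakaryocyte factor, had 2 and 1017 (ratio 11.3, 3.13 to 93.6). Of 16 mast cell, basophil and eosinophil genes, 11 were lower and 1 higher, with a median of -1.32 (-1.28).

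The 10 genes with the largest fitted falls were all at 0 UMIs in members: Trem2, Mnda, Ifi205, Met, Gpr183, Upb1, Ccdc109b, Sphk1, Batf3 and Rhd. Cells with a UMI of a barred monocyte, dendritic or class II gene had been removed by the selection. Falls of myeloid and dendritic genes among these 10 are therefore not independent of it. Against a floor of 3 UMIs over all members (2.13 CPM), Trem2, a receptor of macrophages, was at least 7.11-fold lower, Mnda, an interferon-inducible nuclear protein of myeloid cells, at least 6.09-fold lower, and Batf3, a factor of dendritic cells, at least 3.29-fold lower. Rhd, the erythroid blood group gene, was at least 2.60-fold lower, the least of the 10. Without library c, Sphk1 and Rhd no longer passed (adjusted p = 0.10 and 0.12).

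Irf8, the factor of monocyte and dendritic fate that also acts in lymphoid progenitors, was lower in members at 279, 283 and 320 CPM against 446, 414 and 403 CPM (-0.67 ± 0.10), yet 142 members held it. When cells with a barred UMI were left out of the other cells too, Irf8 turned to 3.74 ± 0.15 higher in members (adjusted p = 1.59e-14) and Cd74, the class II invariant chain, from -3.63 ± 0.16 to 0.89 ± 0.27 (adjusted p = 0.020). The direction for these 2 genes thus depended on whether cells with a UMI of any of the 7 barred genes were in the comparison. These cells were removed together, and the part of each barred gene was not tested.

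Of 20 S phase genes, 11 were lower and 0 higher (median -0.46), and of 20 mitosis genes, 7 were lower and 0 higher (median -0.40). Summed over each list, S phase genes made up 0.142, 0.221 and 0.237% of UMIs in members of a, b and c and 0.256, 0.262 and 0.253% in other cells. Library a was the lowest in members, while b and c came close to the other cells. Mitosis genes made up 0.133, 0.161 and 0.145% against 0.165, 0.161 and 0.177%, the same in library b. Single genes were not firm: Mki67, a protein of dividing cells (-0.41 ± 0.15, adjusted p = 0.041), did not pass with DESeq2, with library totals or without library a or c (adjusted p = 0.30, 0.28, 0.097 and 0.68), and Pcna, the sliding clamp of DNA polymerase (-0.46 ± 0.12), did not pass without the library block or with 2 wanted genes (adjusted p = 0.17 and 0.34). Of 15 immediate early and heat shock genes, which respond to cell handling, 6 were higher and 0 lower (median 0.66), and whether handling had a part in any result was not tested.

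**Figure D3:**
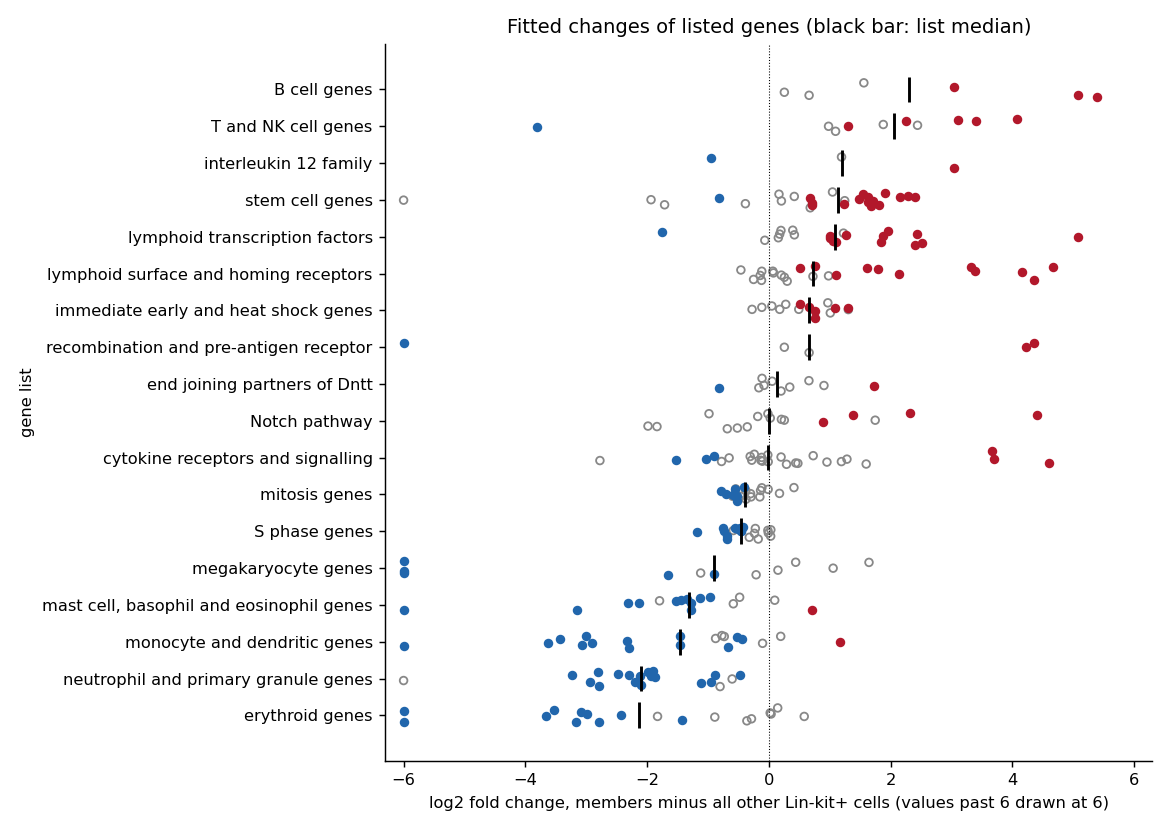
Fitted log2 fold change (members minus all other Lin-kit+ cells) of each tested gene in 18 lists, with red for genes higher and blue for genes lower at an adjusted p below 0.05, open circles for the rest and a black bar at each list's median. Lymphoid and stem cell lists lie to the right of 0, and neutrophil, monocyte and dendritic, mast cell and erythroid lists to the left.

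The members were not uniform. Dntt and Flt3 were both found in 143 members, Dntt alone in 111, Flt3 alone in 20 and neither in 25. The number of Dntt UMIs ran from 0 to 54 per member, with a median of 5 and quartiles of 1 and 13. In the 25 members with neither gene a median of 2.61% of UMIs came from primary granule genes, against 0.0540% in members with both genes, and 9 of the 25 drew over 5% of their UMIs from the 6 granule genes named above. In all, 16 members (5.35%) passed that level, as did 2518 other cells (22.3%). At least 1 of Flt3 and Dntt was found in 274 of 299 members, a count that the selection on these genes largely sets. The 25 without them qualified through Cd52, Il12a, Satb1 and Notch1 alone. Their median of 2.61% from primary granule genes was above the median of 1.19% in other Lin-kit+ cells. As a group, these 25 do not bear out the name lymphoid-primed. Nor do the 16 members over the 5% level, which drew up to 37.6% of their UMIs from the 6 granule genes.

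**Figure D4:**
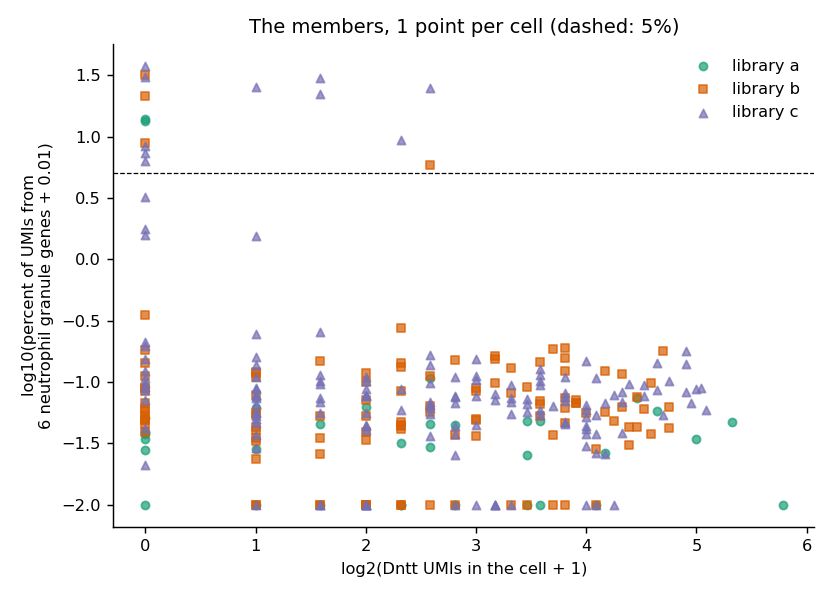
Each member by its Dntt UMIs (log2 of UMIs + 1) and its percentage of UMIs from 6 granule genes (log10, 0.01 added), by library, with a dashed line at 5%. The 16 members above the line, from all 3 libraries, have 0 to 5 Dntt UMIs, where the median over all members is 5.

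The second comparison asked what varied with Dntt inside the population, between 254 members with a Dntt UMI (26, 95 and 133 in libraries a, b and c) and 45 without (8, 18 and 19). Dntt is a gene of the selection, so members without it had to qualify through 3 of the other 5 wanted genes, and the comparison is partly built by that. It describes how the ways of qualifying differed and gives no support to the selection. Of 1865 genes tested with edgeR, 111 (5.95%) were higher and 131 (7.02%) lower in members with Dntt, 13% in all. Without the 16 granule-rich members 15 genes were higher and 25 lower. Without library b the number of higher genes was 61, and without library c 41 were higher and 81 lower. All 17 tested neutrophil genes were lower in members with Dntt (median -3.11). Elane stood at 338, 483 and 941 CPM against 7659, 8222 and 15774 CPM (-4.22 ± 0.09), and Ms4a3, a marker of granulocyte and monocyte progenitors, at 48.2, 44.1 and 179.8 CPM against 509.6, 1085 and 1519 CPM (-3.65 ± 0.23). S100a9 (-4.26 ± 0.42), S100a8 (-4.16 ± 0.47), Camp (-3.98 ± 0.45) and Ly6c2 (-3.86 ± 0.22) were the other 4 of the 6 largest falls. Camp, of whose 3361 UMIs in members 99 lay outside the granule-rich cells, was at 0.11 without those cells (adjusted p = 0.95), while Elane, Mpo, Ly6c2 and Ms4a3 remained lower.

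Ly6d UMIs lay almost only in members with Dntt, at 296, 196 and 50.04 CPM against 0, 11.7 and 0 CPM. The counts were 146 UMIs against 1 (ratio 33.6, exact interval 5.93 to 1335, edgeR adjusted p = 9.39e-07). That ratio counts UMIs, not cells: 28 members held Ly6d, and 5 of them held 57.8% of its UMIs. Of the 45 members without Dntt, 1 held Ly6d. Since 254 of the 299 members held Dntt, most cells with Ly6d would lie there without any link. Cox6a2 had 123 UMIs against 2 (ratio 14.1, 3.83 to 118) and the interferon-inducible gene Ifi27l2a 118 against 2 (ratio 13.6, 3.67 to 113). Gm5111 (115 UMIs against 3), AA467197 (119 against 3) and Ccl3 (2.72 ± 0.58) completed the 6 largest rises, though Gm5111 and Ccl3 did not pass without the granule-rich members (adjusted p = 0.063 and 0.087), AA467197 and Ccl3 did not pass with DESeq2 (0.058 and 0.075), and Gm5111 did not pass without the library block (0.053). Ifi27l2a apart, these genes are also named above among the 15 rises against other Lin-kit+ cells, a comparison made on the same members. Mef2c stood at 462, 469 and 527 CPM against 119.9, 152 and 135 CPM (1.81 ± 0.24), and Irf8 at 386, 323 and 359.7 CPM against 45.0, 117 and 89.9 CPM (2.0 ± 0.29). Mef2c and Irf8 were higher in members with Dntt in every library and also passed without the granule-rich cells. Il7r, Rag2 and Blnk were too sparse to enter this test.

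The third comparison set members against 129 Lin-kit+ cells with stem cell transcripts, non-members with a UMI of 3 or more of Procr, Hlf, Mecom, Mllt3, Ly6a and Meis1 (15, 43 and 71 cells in a, b and c). Both populations were chosen by transcripts counted in the same cells. A gene that tends to occur with those 6 genes, or with the wanted genes, can therefore differ through the choice itself. The test asks only whether the difference held across libraries. Of 3376 genes, 92 (2.73%) were higher and 61 (1.81%) lower in members, 4.53% in all. Without library c these were 20 and 13, and without library a 113 genes were lower. Of the 61 lower genes, the stem cell list held 8, the erythroid list 2 (Car2 and Hbb-bt, of 4 tested) and the megakaryocyte list 1 (Cd9, of 3 tested), and most were in none of these lists. Angpt1, the ligand of Tie2, stood at 47.2, 29.0 and 29.3 CPM against 188, 100.4 and 115 CPM (-1.87 ± 0.28). Esam, an endothelial and stem cell adhesion molecule, stood at 14.2, 2.23 and 1.33 CPM against 62.8, 46.8 and 46.6 CPM (-3.57 ± 0.67). Of 11 tested stem cell genes, 8 were lower, 0 higher, and Cd34, Hoxa7 and Hoxa9 did not pass. The 6 largest falls were Hbb-bt, a beta globin (-3.57 ± 0.26), Apoe (-2.16 ± 0.34), the carbonic anhydrase Car2 (-1.78 ± 0.18), the interferon-induced Ifitm1 (-1.37 ± 0.20) and Ifitm3 (-1.1 ± 0.14), and Vamp5 (-1.30 ± 0.24). Ifitm1 and Vamp5 did not pass without library c (adjusted p = 0.054 and 0.13) or with DESeq2 (0.40 and 0.090), and Apoe did not pass without the library block (0.14).

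On the lymphoid side, Ly6d had 147 UMIs in members and 0 in the stem-like cells, which makes it at least 23.6-fold higher against a floor of 3 UMIs over those cells. Il7r had 64 UMIs against 1 (ratio 23.8, exact interval 4.12 to 953) and Blnk 71 against 2 (ratio 13.2, 3.52 to 111). Hes1 stood at 75.5, 44.6 and 45.3 CPM against 0, 13.4 and 7.17 CPM (2.71 ± 0.59). These 3 genes passed with edgeR but not with DESeq2 (adjusted p = 0.17, 0.14 and 0.29), on few UMIs in the stem-like cells. Of 10 tested lymphoid transcription factors, 1 was higher (Mef2c), 1 lower (Ikzf2) and 8 not called, with a median of 0.19. Bcl11a, Ikzf1, Sox4 and Tcf4, which rose against all other Lin-kit+ cells, were among those not called. Mef2c and Ikzf2 did not pass with DESeq2 (adjusted p = 0.40 for each). Of 15 tested lymphoid surface receptors, 5 were higher and 10 not called, Cd27 and Il2rg among the latter. Irf8, at 279, 283 and 320 CPM against 41.8, 114 and 64.5 CPM (2.04 ± 0.23), passed under all alternatives tried. The largest rises after Ly6d were in neutrophil genes, Fcnb (350 UMIs against 1, ratio 129.96, 23.2 to 5148), S100a8 (5.12 ± 0.19), S100a9 (5.10 ± 0.16), Wfdc21 (4.78 ± 0.36) and Ngp (4.68 ± 0.22). The Fcnb UMIs lay in 26 members, 5 of which held 47.7%. Without the granule-rich members, S100a8, S100a9 and Ngp did not pass, at 0.86 (adjusted p = 0.058), 0.49 (0.28) and 0.19 (0.88). Mpo, higher with all members, did not pass either (0.50, adjusted p = 0.061). Of the 24 genes named against stem-like cells, 18 then kept their call, 4 lost it and the rest could not be fitted. Of the S phase genes 2 of 17 were higher and of the mitosis genes 0 of 15 were called, at medians of 0.26 and -0.11. Of the 4 genes that led the rises against all other cells, Myl10 (0.20 ± 0.14, adjusted p = 0.61) and Gm5111 (0.27 ± 0.27, adjusted p = 0.77) did not pass against the stem-like cells, which held them in 71.3 and 23.3% of cells against 62.2 and 26.8% of members. Wfdc17 was 0.83 ± 0.17 higher in members (adjusted p = 0.0044), and Cox6a2 had 125 UMIs against 3 (adjusted p = 9.45e-05). Among the other named rises, Gimap6 was found in 48.8% of stem-like cells against 42.8% of members. Egfl7 and Gpr171 were found in 34.9 and 37.2% of stem-like cells against 59.2 and 56.2% of members.

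The last comparison set members against the whole reporter-positive libraries, sorted as stem cells by the Fgd5 locus. The 2 libraries differ in their gate and no library was shared with the members, so population and library cannot be told apart. Of 7230 genes, 1125 (15.6%) were higher and 1220 (16.9%) lower, 32.4% in all, or 766 and 1514 with scaling by library totals, which moved the median of all genes from -0.06 to -0.22. Without library c these counts were 684 and 620, without the Fgd5+ library 531 and 697, and without the HSC-Fgd5+ library 510 genes were higher. Of 29 tested stem cell genes, 26 were lower and 1, Cd34, was higher. Mecom stood at 18.9, 8.92 and 14.7 CPM in members and at 171 (Fgd5+) and 195 (HSC-Fgd5+) CPM in reporter-positive cells (-3.59 ± 0.24). Procr, the endothelial protein C receptor, stood at 14.2, 4.46 and 3.996 CPM against 122 and 145 CPM (-4.36 ± 0.33), and Hlf at 33.0, 33.5 and 24.0 CPM against 303 and 306 CPM (-3.24 ± 0.19). Slamf1, which encodes CD150, had 3 UMIs in members and 232 in reporter-positive cells (ratio of reporter-positive cells to members 17.2, exact interval 5.82 to 84.1). Kit, the receptor used for the sort of all populations, was also lower, at 51.9, 24.5 and 29.3 CPM against 135 and 157 CPM (-2.04 ± 0.23). The 6 largest falls, Sult1a1, Clec1a, Sdpr, Vwf, Cpne8 and Gstt1, had 0 UMIs in members, and the bounds ran from at least 18.4-fold lower for Gstt1 to at least 58.7-fold lower for Sult1a1. Vwf, the von Willebrand factor of platelet-biased stem cells, was at least 27.3-fold lower.

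Cd34 stood at 425, 397 and 432 CPM in members against 100.5 and 73.8 CPM in reporter-positive cells (2.40 ± 0.17), and Cd48, which the HSC gate excludes, at 175, 192 and 221 CPM against 6.24 and 1.85 CPM (5.57 ± 0.30). Of 18 tested lymphoid receptors, 15 were higher and 0 lower, with a median of 2.16. Lymphoid transcription factors were split, with 5 of 17 higher and 5 lower (median 0.16). The lower ones were Foxo1, Gata3, Ikzf2, Tcf12 and Zbtb20. Gata3 and Zbtb20 had been higher in members against the other Lin-kit+ cells. Ebf1 stood at 42.5, 15.6 and 27.97 CPM against 0 and 4.15 CPM (4.26 ± 0.81) and Ikzf1 at 127, 138 and 81.3 CPM against 49.4 and 47.1 CPM (1.35 ± 0.22). Mef2c, at 354, 408 and 469 CPM against 281 and 325 CPM, was 0.62 ± 0.16 higher (adjusted p = 0.011) and did not pass without library c (0.52, adjusted p = 0.054) or without the Fgd5+ library (0.48, adjusted p = 0.16). Against the other Lin-kit+ cells, Mef2c had differed by 1.87 ± 0.10. Cox6a2 had 125 UMIs in members and 0 in reporter-positive cells, at least 207-fold higher. The other large rises were Mcpt8, a basophil protease (388 UMIs against 3, ratio 581, exact interval 197 to 2828), of which 5 members held 95.4%, the granule genes Fcnb (6.62 ± 0.72) and Elane (6.53 ± 0.76), Ly6d (6.4 ± 0.83) and the myeloid lectin Clec12a (6.32 ± 0.45). S phase genes were higher in 16 of 20 cases and mitosis genes in 12 of 20, with medians of 0.89 and 0.85 and 0 lower in each list.

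**Figure D5:**
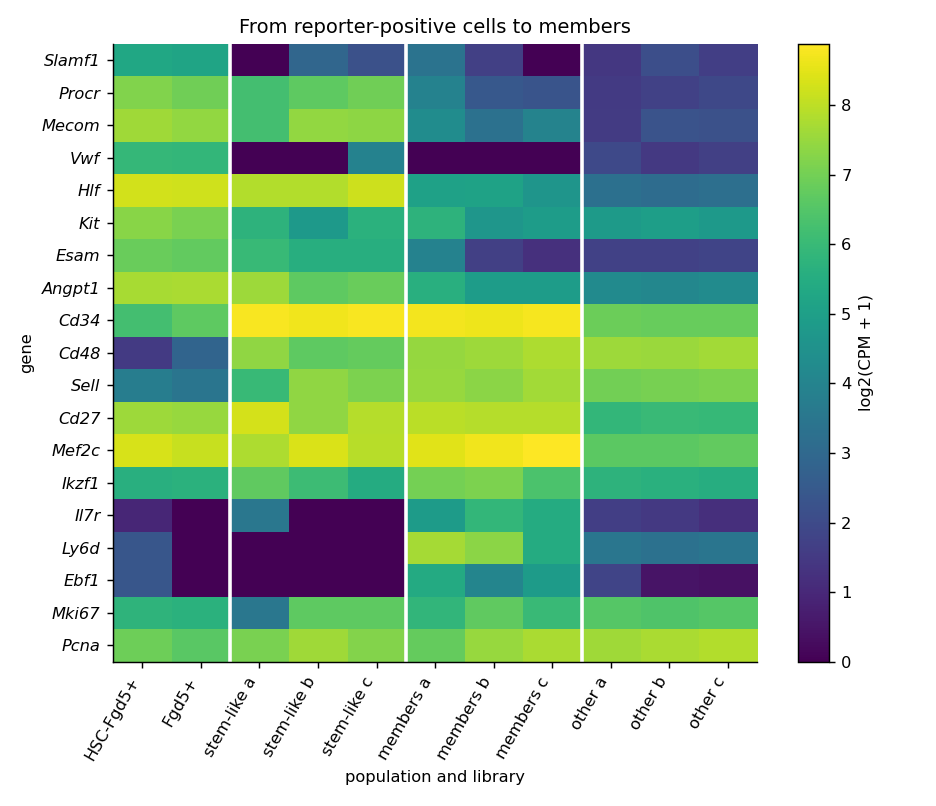
Levels as log2(CPM + 1) of 19 genes in the reporter-positive libraries, the stem-like Lin-kit+ cells, the members and the other Lin-kit+ cells, 1 column per library, with white lines between populations. Hlf and Mecom fade from left to right, Cd34 is brightest in stem-like cells and members, and Il7r, Ly6d and Ebf1 appear in members.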

How the data were processed

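Single-cell libraries of sorted bone marrow cells (Chromium Single Cell 3' kit, version 2 chemistry) were sequenced in consecutive runs, and Cell Ranger was run on the reads by the authors. The submitters' processing notes name Cell Ranger 1.3 and 2.1, Seurat 2.3.4 and mm10, without saying which version made the table. The deposited values are raw UMI counts per gene and cell (15287 genes), not normalized, and were used as deposited with all cells kept. Sequencing of a 3' end does not separate transcripts that overlap there.

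Members were found by the rule given in the report. The members, gene lists and comparisons were chosen with earlier results of these data known. UMIs were summed per library and population and tested with edgeR 4.0.16 in R 4.3.3 (TMM, filterByExpr, quasi-likelihood test, Benjamini-Hochberg adjustment over all genes tested, threshold 0.05), with the 13 genes of the rule that the table holds removed from the tests and the library as a block, except against the reporter-positive libraries. The 6 genes that chose the stem-like cells were removed from that test too. With 2 residual degrees of freedom, the spread in the first comparison was estimated as common to all genes, which makes p-values very small. Populations of 1 library come from the same loading, which is where the block comes from. Genes were named by rank (15 higher and 10 lower in the first comparison and 6 of each in the others, by fitted log2 fold change among genes that passed, with 100 UMIs in the higher population and 1 direction in every library) or because a fixed list holds them. Doublets were called with Scrublet (scanpy 1.11.5, Python 3.11.15) and kept. Intervals of shares are 95% Wilson intervals, and a share of 0 is given with the limit that 3 counts of the total set. Intervals of ratios are exact binomial intervals of UMIs pooled over cells and libraries. They cover counting error only and are too narrow where a few cells hold most UMIs. The scripts were tested on simulated data. DESeq2 1.42.0, other scalings, filters and rules, and each library left out were the alternatives, and the alternatives without granule-rich members, with up to 1 barred UMI and with Dntt or Flt3 required were chosen after seeing the data. Gene positions are from GENCODE M21 (GRCm38). The lineage tracing, flow cytometry and other experiments of the study were not analysed here. Certain genes are not reported here.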

Additional observations from a re-analysis of the deposited data

How the results depend on the processing

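The share of members moved with the rule: 7.64% with 2 wanted genes, 1.31% with 4, 6.82% with no barred genes, 3.82% with up to 1 barred UMI, 2.08, 1.73, 2.09, 1.62, 1.86 and 2.33% with Flt3, Dntt, Satb1, Cd52, Il12a or Notch1 left out, and 1.62% after thinning. It stayed between 2.51 and 2.65% without each library. Counts of genes higher and lower than other Lin-kit+ cells were 506 and 628 with DESeq2 and 1455 and 795 with library totals. With 4 wanted genes 494 were higher, and with 2, 656 were lower. Without each library they ran from 443 to 837 and from 734 to 1125. Against stem-like cells DESeq2 gave 25 higher and 18 lower, the fit without the library block 45 and 31, no filter on low counts 159 higher, and no granule-rich members 58 higher. Leaving out a library gave 20 to 123 and 13 to 113. Between members with and without Dntt, DESeq2 gave 14 higher and 59 lower, no block 18 and 54, members of like depth 28 and 60, no granule-rich members 15 and 25, and no filter 191 higher. Leaving out a library gave 41 to 140 and 81 to 151. Against the reporter-positive libraries 716 genes were lower with DESeq2 and 1910 with no filter, and leaving out a library gave 510 to 1308 higher and 620 to 1423 lower (684 and 620 without c, 531 and 697 without the Fgd5+ library). The block within libraries pairs populations of 1 loading. No paired analysis was possible against the reporter-positive libraries because they share no library with the members.

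Of the genes named against other Lin-kit+ cells, 58 of 85 kept direction and call under all alternatives that could fit them. Changes of direction were as follows. With 2 wanted genes, log2 fold changes were 0.13 for Elane, 0.49 for S100a8, 0.39 for Camp, -0.16 for Fos and -0.047 for Jun, with the last 2 not passing. Tcf7 was at -0.48 with 4 wanted genes and -0.73 without Cd52, neither passing. With barred cells left out of the other cells, Irf8 was at 3.74 and Cd74 at 0.89. In members with Dntt against those without, Camp was at 0.11 without granule-rich members. The cause was not tested. Against stem-like cells 9 of 24 named genes kept their call throughout, inside the members 9 of 20, and against reporter-positive cells 21 of 24. With 34 members in library a and 45 without Dntt, genes under a few UMIs could not be tested.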
